A study of Homo sapiens with 6 samples.

Results

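The sodium pump genes described here are 3 genes of the beta subunit family of the sodium-potassium ATPase, ATP1B1, ATP1B2 and ATP1B3, and 4 genes of FXYD regulators, FXYD2, FXYD3, FXYD5 and FXYD6. They make up 7 of the 54259 gene symbols in the table of read counts, and they were matched by symbol. The genes were chosen by their level in shBry against shNC in these same libraries, so every difference given for them is a description and carries no test. The RNA came from MDA-MB-231, an established human breast cancer cell line with mesenchymal features, in 2 groups of 3 libraries. The shBry cells carry a short hairpin RNA directed at brachyury, a T-box transcription factor, and the shNC cells carry a control hairpin. The hairpin sequence and the number of clones behind each group are not given in the sources used here, and nothing in the labels says that the 3 libraries of a group came from separate cultures, so their spread may be technical. Both groups share the same parental line, and the comparison asks which transcripts differ when brachyury is targeted.

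The sodium pump moves sodium out of the cell and potassium into it at the cost of ATP. Its alpha subunit carries out the transport, and its beta subunit is a glycosylated partner that brings the alpha subunit to the plasma membrane and takes part in adhesion between neighbouring cells. FXYD proteins are small single-span membrane proteins that bind the assembled pump and tune its affinity for ions. FXYD2, the gamma subunit, is best known from kidney tubules. FXYD5, also called dysadherin, is known for lowering cell adhesion in carcinoma cells, FXYD3 is a regulator of epithelia, and FXYD6, phosphohippolin, is known from the nervous system.

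Between 19319411 and 22985371 reads per library were counted on genes, and levels are given as counts per 1000000 (CPM) after scaling by the TMM method. Where no read was seen, up to 3 counts remain possible by counting error alone. By library totals before TMM scaling, that is 0.131 to 0.155 counts per 1000000 in these libraries. No library was a copy of another, since pairs within a group were 5 to 16.8 times more different than counting noise by the chi-square statistic over its degrees of freedom. Brachyury, listed under its older symbol T, had 0 counts in all 6 libraries. Its transcript was thus not detected in the shNC controls either, and its row gives no check of the hairpin. All 6 markers listed for MDA-MB-231 had at least 10 counts in every library, with VIM between 3032 and 3982 CPM. Their sum, mostly from VIM, was between 4970 and 5484 CPM in shBry and between 5504 and 5804 CPM in shNC. The 6 did not move together, since VIM, CAV1 and S100A4 were lower in shBry, CD44 was higher, and ANXA1 and LGALS1 overlapped. Of 8 luminal markers, ESR1 and PGR had at most 1 count and CDH1 at most 2. The summed level of the 8 was 560 to 700 CPM in shBry and 1339 to 1457 CPM in shNC, mostly from KRT8 and KRT18. The other luminal markers did not move together. KRT8, KRT18 and KRT19 were lower in shBry without overlap. EPCAM was higher, at 3.66 to 5.01 CPM in shBry and 0.962 to 1.89 CPM in shNC. GATA3 was also higher, at 12.01 to 13.9 CPM in shBry and 9.35 to 11.7 CPM in shNC. The deposited text on the study speaks of pericardial RNA, so markers of pericardial mesothelium and heart muscle were read. Of the heart muscle markers, MYH6 and MYH7 were at 0 in every library, TNNT2 had at most 2 counts and ACTN2 at most 7. These markers do not bear on mesothelium. The mesothelial markers WT1 and UPK3B had at most 7 and 5 counts. Whether such tissue contributed to the RNA was not tested. The whole list of 8 pericardial and heart markers summed to 45.2 to 50.8 CPM in shBry and 35.5 to 39.2 CPM in shNC, mostly from MSLN, with CALB2 at up to 11.1 CPM in shNC. Of 4 lung markers, SFTPB and SFTPC were at 0, NKX2-1 was at 14.9 to 18.8 CPM in shBry and 32.3 to 38.4 CPM in shNC, and the list summed to 18.6 to 22.8 CPM in shBry and 36 to 43.1 CPM in shNC. Leukocyte markers stayed at or below 3 counts, with PTPRC and TYROBP at 0 in all libraries and a sum of the 4 of at most 0.108 CPM in shBry and 0.229 CPM in shNC.

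Of the 7 genes, 5 had enough counts for the comparison of the groups, and 3 of these 5 had values that did not overlap between shBry and shNC. FXYD6 and FXYD2 were lower and FXYD5 was higher in shBry, while the beta subunit genes ATP1B1 and ATP1B3 overlapped. A gene was called where edgeR's quasi-likelihood test over 15277 genes gave a Benjamini-Hochberg adjusted p under 0.05 together with a change of more than 1.5-fold. By that rule 32.4% of all tested genes were called, 17.1% higher and 15.2% lower in shBry, and 59.5% of all tested genes had groups that did not overlap. The calls fell on the same 3 genes, 1 higher and 2 lower, and since the genes were chosen from this comparison nothing is read from the count. FXYD2 passed the filter on low counts only through shNC, where it was higher, so its place among the 5 is itself tied to the difference. In RNA from whole cultures, fewer expressing cells and less RNA per cell cannot be told apart.

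**Figure D1:**
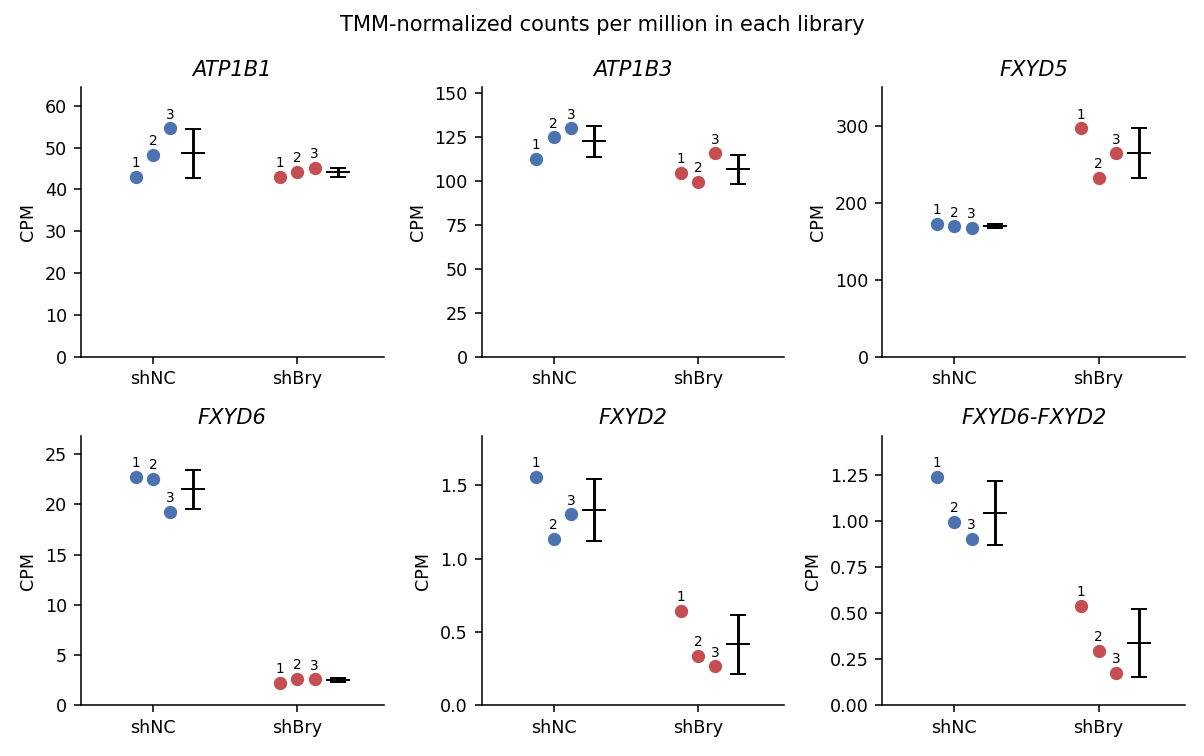
TMM-normalized CPM (vertical axis, from 0) in each of the 3 shNC (blue) and 3 shBry (red) libraries, with replicate numbers, for the 5 expressed genes and the read-through gene FXYD6-FXYD2. Bars show the mean ± SD of 3 libraries. FXYD6 lay in separate ranges of 19.3 to 22.7 CPM in shNC and 2.26 to 2.66 CPM in shBry, while ATP1B1 and ATP1B3 overlapped.

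FXYD6 differed most among the 7 genes. It lies on the minus strand of chromosome 11 of GRCh38, from 117836976 to 117877486, with 17 transcripts in GENCODE 29, of which 9 are protein-coding. Its promoter windows, 250 bases before and 50 bases after each annotated start, are shown because one of them is shared with the read-through gene discussed below. They are given 5′ to 3′ on the minus strand from RefSeq (GRCh38.p14), and capitals mark a GC box (GGGCGG or its reverse complement CCGCCC) in the shared window and an E-box (CACGTG) in the upstream window.
FXYD6 and FXYD6-FXYD2 shared start, chr11:117876609-117876908: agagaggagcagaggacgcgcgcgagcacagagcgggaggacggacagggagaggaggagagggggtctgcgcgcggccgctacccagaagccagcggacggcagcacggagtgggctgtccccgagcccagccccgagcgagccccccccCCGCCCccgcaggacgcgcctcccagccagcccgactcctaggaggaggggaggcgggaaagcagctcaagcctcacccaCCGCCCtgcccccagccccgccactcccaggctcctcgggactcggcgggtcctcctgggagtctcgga
FXYD6 upstream start, chr11:117877381-117877680: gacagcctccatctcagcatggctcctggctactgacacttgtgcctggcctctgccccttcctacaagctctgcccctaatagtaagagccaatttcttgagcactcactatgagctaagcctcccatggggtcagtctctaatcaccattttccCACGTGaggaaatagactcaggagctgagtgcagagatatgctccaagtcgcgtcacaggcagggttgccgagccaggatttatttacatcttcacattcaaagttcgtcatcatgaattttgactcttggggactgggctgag

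In shNC, FXYD6 had 496, 477 and 385 counts in replicates 1, 2 and 3, which are 22.7, 22.5 and 19.3 CPM. In shBry it had 42, 63 and 58 counts, which are 2.26, 2.66 and 2.57 CPM. All 3 shBry libraries lay far below all 3 shNC libraries, and the libraries within a group lay close together. The means were 2.5 ± 0.208 CPM in shBry and 21.5 ± 1.94 CPM in shNC (SD, n = 3), so the level was 8.57-fold higher in shNC, a log2 fold change of -3.10 with a standard error of 0.15. Leaving out any one library kept it between -3.20 and -3.04. Per kb of exon, FXYD6 stood at the 49.7th percentile of the 13619 tested genes with an exon length in shNC and at the 13th percentile in shBry. Other annotated genes cover 19.8% of its exon bases, of which the read-through gene covers 7.59% on the same strand and an antisense RNA, AP000757.1, covers 12.2%. The strand setting of the counting is not given in the sources used here, and AP000757.1 has no row of counts under that symbol. The table's rows for the pseudogenes FXYD6P1 and FXYD6P3 were at 0, and that for FXYD6P2 had at most 4 counts.

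FXYD2 lies 8278 bases downstream of FXYD6 on the same strand, from 117800844 to 117828698, and no promoter sequence is shown for it. An antisense RNA, AP000757.2, and the read-through gene cover 7.74% and 7.01% of its exon bases. It had 34, 24 and 26 counts in shNC replicates 1, 2 and 3, or 1.56, 1.13 and 1.3 CPM. In shBry it had 12, 8 and 6 counts, or 0.646, 0.337 and 0.266 CPM. Every shBry library lay below every shNC library, and shBry replicate 1 was the highest of its group. The means were 0.416 ± 0.202 and 1.33 ± 0.213 CPM (SD, n = 3), a log2 difference of -1.70 with a standard error of 0.39, and without shBry replicate 1 it was -2.12. At these counts the spread within shBry was wide, with a coefficient of variation of 48.5%. The kidney tubule markers UMOD, SLC12A1 and AQP2 were at 0 in all 6 libraries. The other 2 markers of that list of 5 were detected, PAX8 at 20.8 to 27 CPM in shBry and 7.16 to 8.48 CPM in shNC, and LRP2 with at most 10 counts, and the whole list summed to 21.1 to 27.1 CPM in shBry and 7.61 to 8.84 CPM in shNC. The part of cells of that kind in the FXYD2 values was not tested.

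A read-through gene, FXYD6-FXYD2, is annotated across both genes, with its first exon in FXYD6 and its last in FXYD2. All of its exon bases lie in exons of other genes, 49.9% of them in FXYD6 and 50.1% in FXYD2, so how reads were divided among the 3 rows depends on the counting. It had 27, 21 and 18 counts in shNC and 10, 7 and 4 counts in shBry. Every shBry library lay below every shNC library, and the log2 difference was -1.66 with a standard error of 0.43, given without a test because its exons are those of the chosen genes. In every library its counts stood close to those of FXYD2, with 1.14 to 1.5 FXYD2 counts for each read-through count. For each 100 FXYD6 counts there were 4.4 to 5.44 read-through counts in shNC and 6.9 to 23.8 in shBry, and these ranges did not overlap. The 3 rows were therefore lower together in shBry, with FXYD6 lower by the larger factor, but the read-through gene has its exons in common with the other 2, so these are not 3 separate measurements.

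**Figure D2:**
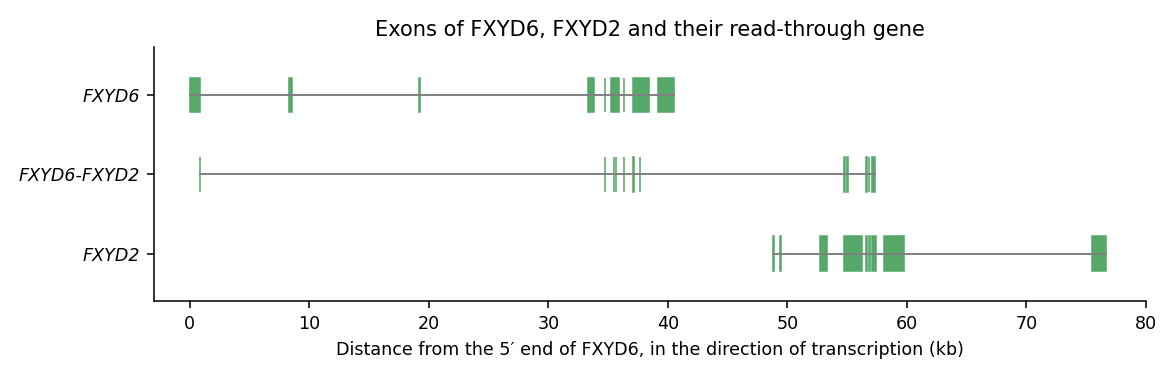
Exons (green boxes) of FXYD6, FXYD2 and the read-through gene FXYD6-FXYD2 in GENCODE 29, drawn to scale by distance in kb from the 5′ end of FXYD6 (horizontal axis, direction of transcription left to right). Each exon of the read-through gene lies in an exon of FXYD6 or FXYD2, and 8278 bases separate those 2 genes.

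FXYD5 was the most abundant FXYD gene and differed in the opposite direction. It lies on the plus strand of chromosome 19, from 35154730 to 35169883, and no other annotated exon overlaps it. Its RefSeq promoter window holds a single GC box, in capitals and in the reverse orientation, and is shown beside those of FXYD6 for comparison.
FXYD5, chr19:35154485-35154784: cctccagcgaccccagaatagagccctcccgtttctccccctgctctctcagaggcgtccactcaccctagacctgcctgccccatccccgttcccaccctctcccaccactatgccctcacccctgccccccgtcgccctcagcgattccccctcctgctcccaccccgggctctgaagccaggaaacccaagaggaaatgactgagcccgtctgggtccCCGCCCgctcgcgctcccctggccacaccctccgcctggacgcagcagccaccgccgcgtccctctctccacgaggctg

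FXYD5 had 172.8, 169.6 and 167.8 CPM in shNC replicates 1, 2 and 3 and 297, 233 and 265 CPM in shBry. The shNC libraries agreed within a coefficient of variation of 1.49%, the shBry libraries within 12.2%, and the lowest shBry library lay above the highest shNC library. The means were 265 ± 32.3 and 170 ± 2.53 CPM (SD, n = 3), a log2 difference of 0.64 with a standard error of 0.09. This is a 1.56-fold difference, close to the limit of 1.5. Without shBry replicate 1, the highest library, the log2 fold change was 0.54 and FXYD5 was no longer past the limit.

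FXYD3 lies upstream of FXYD5 on chromosome 19, from 35115879 to 35124324, and another annotated gene, AC020907.6, covers 38.8% of its exon bases. It had 0 counts in all 6 libraries, and a difference was not detectable at this depth. ATP1B2, on chromosome 17 from 7646627 to 7657768, had 3 counts in shBry replicate 1 and 0 in the other 5 libraries, and no fold is given. Both were below the filter on low counts. The promoter windows of FXYD3 and ATP1B2 had 54.7% and 49% G and C, below the median of 58.7% over 34943 RefSeq promoters, and no GC box. The windows of ATP1B1, ATP1B3, FXYD5 and the shared start of FXYD6 had 77%, 75%, 69% and 74.3% G and C and between 1 and 4 GC boxes each, and the upstream start of FXYD6 had 50.7% and none. A GC box was found on either strand in 44.9% of all those promoters and an E-box in 7.23%. The core of the T-box site, TCACACC or its reverse complement GGTGTGA, occurs in 3.45% of all promoters and in none of the windows of the 6 genes with a promoter in the table. This says only that these letters are not in these 300 bases. None of the motif words overlaps another kind, and a match is a description of sequence, not a site of binding.

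The beta subunit genes showed little difference between the groups. ATP1B1 lies on the plus strand of chromosome 1, from 169105697 to 169132722, and encodes the widespread beta 1 subunit. It had 43, 48.2 and 54.6 CPM in shNC replicates 1, 2 and 3 and 43, 44.2 and 45.1 CPM in shBry. The shBry values lay within the range of shNC, and the log2 fold change was -0.14 with a standard error of 0.10. ATP1B3, on the plus strand of chromosome 3 from 141876124 to 141926514, encodes the beta 3 subunit, also known as CD298. It had 112.6, 124.9 and 129.9 CPM in shNC and 104.7, 99.5 and 115.6 CPM in shBry. Replicate 3 of shBry lay above replicate 1 of shNC, so the groups overlapped, and the log2 fold change was -0.20 with a standard error of 0.09. Leaving out 1 library kept ATP1B1 between -0.23 and -0.07 and ATP1B3 between -0.26 and -0.17, so both stayed on the lower side, within the fold change limit.

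**Figure D3:**
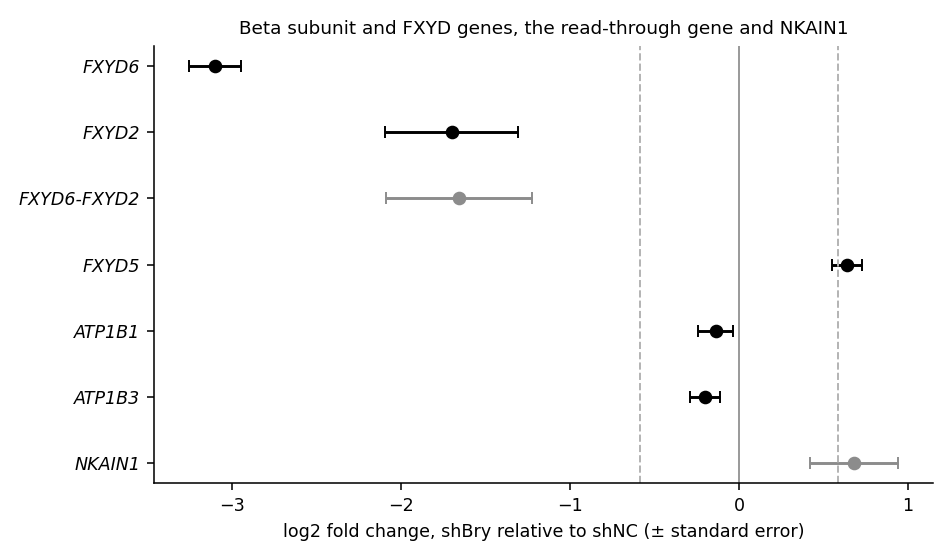
Log2 fold change of shBry relative to shNC (horizontal axis) with its standard error for the 5 expressed genes (black) and for the read-through gene and NKAIN1 (grey). Dashed lines mark a fold change of 1.5 in either direction. FXYD6 lies at -3.10, ATP1B1 at -0.14 and ATP1B3 at -0.20, and FXYD5 at 0.64 has an error bar that crosses the upper line.

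Levels were compared between genes as CPM per kb of exon. Within the beta family, ATP1B3 made up 73.4% ± 1.26 in shBry and 74.3% ± 1.01 in shNC (SD, n = 3), with nearly all of the rest from ATP1B1. The balance of the 2 beta genes therefore differed by less than the spread between libraries. Within the FXYD family, FXYD5 made up 99.4% ± 0.0922 in shBry and 92.8% ± 0.506 in shNC, and FXYD6 made up 0.554% ± 0.11 and 6.83% ± 0.507. Without division by exon length, the FXYD6 shares were 0.947% in shBry and 11.1% in shNC. The ratio of FXYD5 to FXYD6 was 12.9 to 14.9 in the shNC libraries and 150.3 to 225.6 in the shBry libraries, without overlap. The summed level of the 4 FXYD genes was 78.3 to 99.9 CPM per kb in shBry and 60 to 62.4 CPM per kb in shNC, and that of the 3 beta genes was 53.4 to 60 and 58.1 to 68.7 CPM per kb. The FXYD sum was thus 1.47 to 1.81 times the beta sum in shBry and 0.874 to 1.07 times in shNC. The size of this ratio depends on the gene lengths used, and no other length was tried for it. These ratios use the same comparison that chose the genes and describe it.

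**Figure D4:**
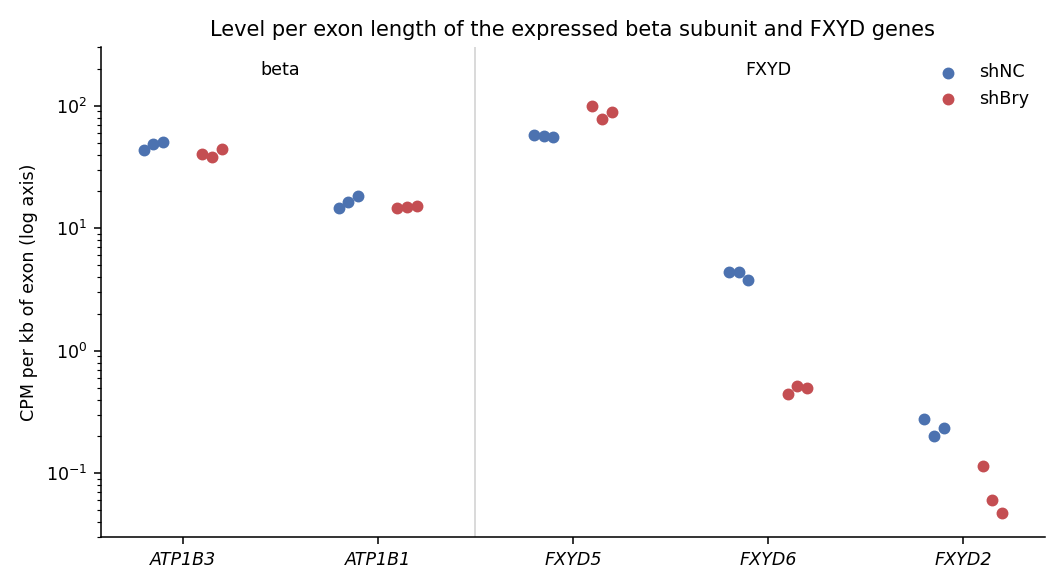
CPM per kb of exon (vertical axis, logarithmic) of the expressed beta subunit and FXYD genes in the 3 shNC (blue) and 3 shBry (red) libraries. Within the FXYD family FXYD5, at 56.1 to 99.3 CPM per kb, stands far above FXYD6 and FXYD2.

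The other genes of the pump were taken from a list of 12, of which 3 had enough counts to be tested and 1 was called. NKAIN1, which encodes a membrane protein that interacts with the pump, was the gene called, higher in shBry. It had 2.96, 3.12 and 2.22 CPM in shBry and 1.42, 1.56 and 2.2 CPM in shNC, a difference of 0.68 on the log2 scale (SE 0.26, edgeR adjusted p = 0.039). The call was lost without shBry replicate 1, shBry replicate 2, shNC replicate 1 or shNC replicate 2, with log2 differences down to 0.55 and edgeR adjusted p up to 0.145. FXYD1, or phospholemman, had 3, 10 and 3 counts in shNC and 0, 2 and 0 in shBry, too few for the test. FXYD7, whose gene ends 429 bases before FXYD5, had at most 6 counts, NKAIN3 had at most 3 and NKAIN2 had at most 1. ATP1A4, ATP1B4, FXYD4 and NKAIN4 had none in any library.

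Further lists of ion transport genes were described beside these. Over all tested genes the median log2 fold change was 0.03 and 32.4% were called. In the 4 lists that follow, 25%, 41.7%, 42.1% and 36% of the tested genes were called, in that order. Nothing is read from these shares. Of 12 tested P-type ATPases related to the pump, 3 were called, all higher, and the median was -0.09. Among them ATP2B1, a calcium pump of the plasma membrane, rose from 29.2 ± 7.23 to 48.1 ± 8.9 CPM (0.73 on the log2 scale, edgeR adjusted p = 0.0018), but not past the limit without shBry replicate 2. ATP13A3, a polyamine transporter, rose from 54.2 ± 8.46 to 98.7 ± 23.9 CPM (0.87 on the log2 scale, edgeR adjusted p = 0.00021). Without shBry replicate 2, ATP13A3 was still called, at 0.64. The third, ATP12A, a proton-potassium pump, stood at 0.539 and 1.24 CPM in shNC and shBry, under the level set for named genes, and its call was lost without shBry replicate 3.

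Of 24 tested genes of sodium entry and exchange, 5 were called higher and 5 lower, with a median log2 fold change of 0.02. SLC9A8, a sodium-proton exchanger of internal membranes, rose from 29.4 ± 2.33 to 70.1 ± 1.32 CPM (1.25 on the log2 scale, edgeR adjusted p = 8.2e-08). SLC4A7, a sodium bicarbonate cotransporter, rose from 12.3 ± 3.18 to 31.1 ± 12.8 CPM (1.34 on the log2 scale, edgeR adjusted p = 4e-04). Without shBry replicate 2, its highest library, SLC4A7 was still called, at 0.95 on the log2 scale.

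Of 19 tested genes of potassium and chloride exit, 6 were called higher and 2 lower, with a median log2 fold change of 0.43. SLC12A7, a potassium chloride cotransporter, rose from 12.8 ± 0.999 to 21.9 ± 2.22 CPM (0.77 on the log2 scale, edgeR adjusted p = 0.00016). LRRC8B, a subunit of volume-regulated anion channels, rose from 6.06 ± 0.713 to 12.6 ± 3.73 CPM (1.07 on the log2 scale, edgeR adjusted p = 4e-04). Without shBry replicate 2, LRRC8B was still called, at 0.78. KCNK6, a potassium leak channel, rose from 4.77 ± 0.843 to 8.16 ± 2 CPM (0.77 on the log2 scale, edgeR adjusted p = 0.0059), and it was under the fold change limit without shBry replicate 3.

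Of 25 tested regulators and membrane anchors of the pump, 3 were called higher and 6 lower, with a median log2 fold change of 0.16. SGK1, a kinase that raises sodium transport downstream of corticosteroids, rose from 23.5 ± 1.53 to 61 ± 9.2 CPM (1.38 on the log2 scale, edgeR adjusted p = 3.6e-07). NEDD4, a ubiquitin ligase, rose from 39.4 ± 2.42 to 86.3 ± 10.3 CPM (1.13 on the log2 scale, edgeR adjusted p = 5.1e-07). ANK1, an ankyrin that ties membrane proteins to the spectrin skeleton, fell from 11.7 ± 0.295 to 3.72 ± 0.589 CPM (-1.64 on the log2 scale, edgeR adjusted p = 1.5e-06). SGK1, NEDD4 and ANK1 were called in all 6 fits that left out 1 library.

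**Figure D5:**
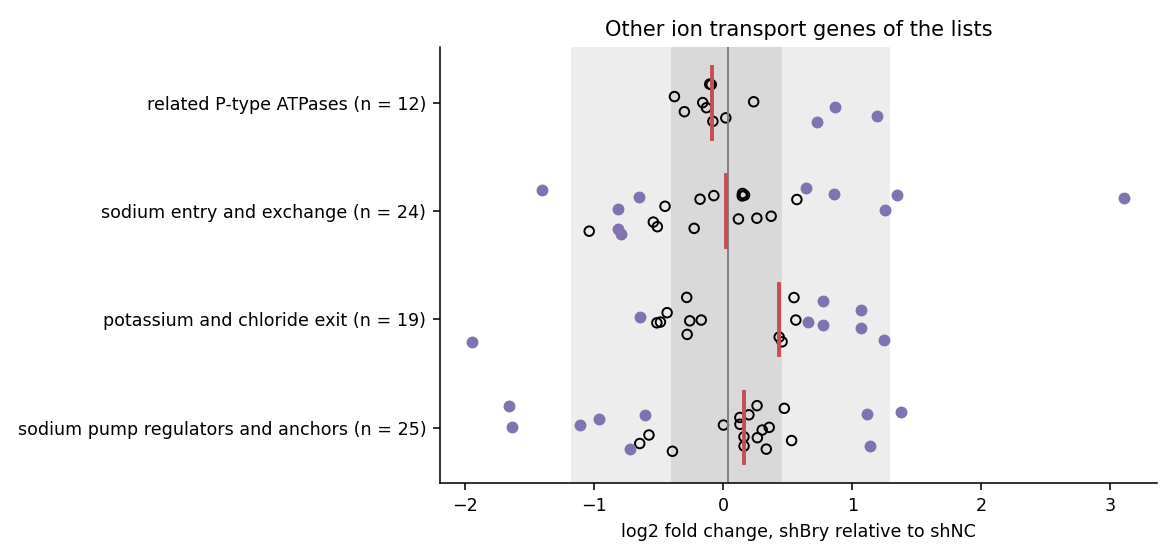
Log2 fold change of shBry relative to shNC (horizontal axis) of each tested gene in 4 lists, with called genes filled, other genes open and the median of each list as a red bar. Grey bands span the 5th to 95th and the 25th to 75th percentiles of all tested genes, from -1.17 to 1.28 and from -0.40 to 0.44, and the list medians lie between -0.09 and 0.43.

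Neighbouring genes were read for the same libraries. NME7 overlaps ATP1B1 on the opposite strand and shares 192 exon bases with it, 6.48% of those of ATP1B1. NME7 was lower in every shBry library, with 16.9, 17.8 and 17.3 CPM against 20.4, 21.6 and 24.8 CPM in shNC, a difference of -0.36 on the log2 scale (edgeR adjusted p = 0.019), under the limit. LGI4, next to FXYD3, had at most 2 counts. Of the pseudogene rows of the beta genes, ATP1B3P1 was at 0 and ATP1B1P1 had at most 5 counts. Whether reads of the beta genes were lost to such pseudogenes was not tested.

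The genes whose pattern over the 6 libraries was most like that of each expressed gene were found by the root mean square distance between log2 profiles, each centred on its own mean, among the 10930 tested genes that averaged 5 CPM or more. Profiles were taken as log2 of CPM plus 0.5, which shrinks the difference of a low gene such as FXYD2. MXD3, a member of the MAX network, and LRRC45, a centrosomal protein gene, were nearest to FXYD6, at distances of 0.09 and 0.12. They were the only 2 genes within 0.15 of FXYD6, while 17 genes lay within that distance of FXYD2, 938 of FXYD5, 1393 of ATP1B1 and 1785 of ATP1B3. PITHD1 and RPL12, a ribosomal protein gene, were nearest to FXYD5, both at 0.02 to 0.03. BRI3BP and CES2 were nearest to FXYD2, at 0.08 and 0.11. NVL and NIPA2 were nearest to ATP1B1, at 0.02 and 0.03, and EXOSC3 and POLR1C to ATP1B3, both at 0.03. These distances describe 6 libraries that share 2 group means, and nothing is read from them about function.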

How the data were processed

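RNA sequencing reads of 3 shBry and 3 shNC libraries of MDA-MB-231 cells were aligned by the authors with HISAT2 2.0.4 to GRCh38 and counted per gene with HTSeq, per the labels and the submitters' processing notes. The authors deposited these read counts as whole numbers, not normalized, in a single table. The gene annotation and the strand setting are not given in the sources used here. The table also held 9 empty unnamed columns, which were not used.

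Counts were filtered with filterByExpr (minimum count 10), scaled by TMM and tested with edgeR 4.0.16 in R 4.3.3 by the quasi-likelihood test, with Benjamini-Hochberg adjustment over 15277 genes. A call needed an adjusted p under 0.05 and a fold change over 1.5. The fit was also run on simulated counts with 200 changed genes. That is far fewer than were called in the data, so the run does not show how the fit behaves here. Library totals were 19319411 to 22985371 counts, and TMM factors were 0.962 to 1.03. Exon lengths and overlaps came from GENCODE 29, and promoters from RefSeq. The p-values weigh the difference of the groups only against the spread between these libraries, which may be technical.

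The genes described, and all gene lists, were chosen with earlier results of these data known. The text names the 7 genes, the other pump and FXYD genes with any count, and neighbours within 10 kb. From each further list it names the 3 called genes of largest change with at least 5 CPM and no overlap, and for each expressed gene the 2 nearest profiles. Genes named outside the rule (ATP12A, the pseudogenes and the list genes without a count) were chosen after their values were seen. Some genes that this rule names are not reported here. The results were recomputed with DESeq2 1.42.0, with limma-voom (limma 3.58.1), with unscaled library sizes, with no filter, with at least 10 counts in every library, with a replicate block, with other fold limits and gene lengths, and with each library left out.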

Additional observations from a re-analysis of the deposited data

How the results depend on the processing

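No alternative turned the direction of FXYD2, FXYD5, FXYD6, ATP1B1 or ATP1B3, and their log2 fold changes ranged from -2.12 to -1.46, from 0.54 to 0.71, from -3.20 to -3.04, from -0.23 to -0.07 and from -0.26 to -0.17. FXYD2 could not be tested where at least 10 counts were required in every library. The 4945 genes called became 2297 with a fold limit of 2 and 8139 with none, and 4587 to 5025 when 1 library was left out. The 3 calls among the 7 genes became 2 to 3 when 1 library was left out, FXYD5 being lost without shBry replicate 1. The single call among the other pump genes, NKAIN1, became 0 without TMM, 0 with DESeq2, 0 with a fold limit of 2, 3 with no limit and 0 to 2 when 1 library was left out. With a fold limit of 2, the calls became 1 among the P-type ATPases, 4 in sodium entry and exchange and 4 in potassium and chloride exit. With no limit, they became 16 in potassium and chloride exit and 15 among the regulators. When 1 library was left out, these lists held 2 to 3, 9 to 12, 6 to 9 and, for the regulators, 9 to 10 calls. A lower or higher fold limit changes counts by construction, and the cause of the other differences was not tested.

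No pairing by replicate number was seen. Same-numbered libraries deviated with correlations of 0.246, -0.129 and -0.0539, and differently numbered ones with -0.296 to 0.307. A weak pairing would not show with 3 libraries per group. With a replicate block, 4914 genes and 3 of the 7 were called, and none of the other pump genes (0), as NKAIN1 had an edgeR adjusted p of 0.0575. The other lists held 3, 10, 8 and 9 calls, the numbers found without the block.

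Without division by exon length, ATP1B3 made up 70.7% of the beta transcripts in shBry and 71.6% in shNC, FXYD5 98.9% and 88.2% of the FXYD transcripts, and FXYD6 0.947% and 11.1%. With the longest protein-coding transcript as length, a choice made after seeing the data, these shares were 77.6% and 78.4%, 98.95% and 90.1%, and 0.690% and 8.29%. Leaving out 1 library gave 72.8% to 74.1% and 74.0% to 74.9% for ATP1B3, 99.3% to 99.4% and 92.5% to 92.9% for FXYD5, and 0.502% to 0.611% and 6.67% to 7.13% for FXYD6. Depth limits FXYD2, which had 6 to 34 counts per library, and leaves ATP1B2 and FXYD3 without a fold.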
